A study of Mus musculus with 6 samples.

Results

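The δ chain of the γδ T cell receptor (TCR) is encoded on chromosome 14 by V, D and J segments and the constant region Trdc, and every segment gene of this kind in the deposited gene tables was examined in γδ thymocytes, the immature T cells bearing this receptor. Genes were taken by name (Trdv, Trdd, Trdj, Trdc, and Trav segments with a dv number, which the α and δ chains share), which gave 20 of 41195 genes, namely 15 δ V segments (5 named Trdv and 10 named Trav) in 11 numbered families, 2 D segments, 2 J segments and Trdc. RNA-seq had been done on 6 libraries, 3 from Nfatc1fl/fl mice, in which loxP sites flank exon 3 of Nfatc1 and no Cre is present, and 3 from Rag1Cre-Nfatc1fl/fl mice, in which Cre is expressed from the Rag1 locus and therefore in the B and T lineages alike. All mice were on a C57/B6 background, aged 4 to 6 weeks and matched for sex and age. Per the study's methods the cells were enriched on magnetic columns by a TCRγ/δ isolation kit, and poly(A) libraries were made with a kit that does not record strand. Nothing states how many mice went into a library, so p-values measure the spread between these libraries.

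During development a δ V segment is joined to D and J segments by the RAG recombinase, and splicing then links the joined V exon to Trdc. The V segment decides much of what the receptor can bind. In the mouse, NKT γδ cells, which make IL-4 and IFNγ and express the transcription factor PLZF, typically carry a Vγ1.1 chain with a Vδ6.3 chain, and Vδ6 chains are encoded by the Trav15 segments with a dv6 name. The comparison asked whether loss of NFATc1 alters the differentiation of γδ thymocytes. Reads listed under the V segments describe segment RNA and do not show which joined receptors the cells carry.

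Read totals over all genes lay between 20734771 and 22638531 per library. Nfatc1 reads were not lower but higher in the libraries labelled Rag1Cre-Nfatc1fl/fl, at 371.3 ± 63.8 CPM (read counts scaled to a common library size) against 203.6 ± 5.76 in Nfatc1fl/fl libraries (SD, n = 3 each), and since only exon 3 is deleted these whole-gene counts do not check the genotype. Rag1Cre-Nfatc1fl/fl replicate 3 stood apart from its group, with a chi-square per degree of freedom of 63.5 and 70.9 against the other libraries of its group, which gave 7.89 against each other. The summed level of 8 γδ T cell markers, all with reads, ran from 2697 to 2759 CPM in Nfatc1fl/fl and from 1949 to 2218 CPM in Rag1Cre-Nfatc1fl/fl libraries, with 4 of the 8, Trdc among them, called lower. By the same rule, given further on, 3.51% of all tested genes were called lower. The summed level of 12 markers of double-positive and αβ thymocytes, all with reads, was 1831 to 1862 and 1257 to 2059 CPM. Of these 12 markers 2 were called lower. Much of the sum came from Trbc1 and Trbc2, with means of 627.3 and 530.9 CPM in Nfatc1fl/fl libraries. The 7 macrophage markers, all with reads, summed to between 18.0 and 82.7 CPM and to between 49.4 and 261.5 CPM, with the highest value in replicate 3. The 6 B cell markers summed to 25.2 to 28.3 and 14.2 to 19.2 CPM, the 5 thymic epithelial markers to 18.4 to 20.4 and 8.20 to 11.4 CPM, and the NK, dendritic and erythroid lists each to less than 40 CPM in every library. In the B cell list and in the thymic epithelial list only 1 marker each was tested, and both were called lower. No macrophage, NK, dendritic or erythroid marker was called. Of the 3 αβ NKT markers, Trav11 and Traj18 were at 0 in all 6 libraries. The other, Trav11d, had few reads, at 0.04 to 0.13 CPM in Nfatc1fl/fl and 0 to 0.05 CPM in Rag1Cre-Nfatc1fl/fl libraries. The part of these differences in the results below was not tested. Without replicate 3 the same δ genes were called, and the values of Trav15d-1-dv6d-1, DV6 and Trdc without it are given beside their main values.

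Of the 20 δ genes, 14 had reads, 13 of them V segments. No read was listed for Trdv2-1, Trdv4, Trdd1, Trdd2, Trdj1 and Trdj2, which lie wholly under genes annotated on the other strand, as described further on. The remaining members held 55258 reads over the 6 libraries, all classed as intron reads, because the annotation in the tables gives an exon to only 1 member, Trdd1. Exon counts were therefore of no use here, and gene reads were used in total and as the reads that the tables list as unique.

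Over 11 δ genes that passed the filter on low counts, 1 was higher and 7 were lower in Rag1Cre-Nfatc1fl/fl than in Nfatc1fl/fl γδ thymocytes, and 3 were not called (edgeR quasi-likelihood test, where a call needed an adjusted p below 0.01 with a log2 change beyond 0.5 either way). Over all 13185 genes tested the same rule called 9.98% of genes, 6.47% higher and 3.51% lower. The 1 gene that rose was Trav15d-1-dv6d-1, a DV6 segment, and those that fell were the segments Trav15d-2-dv6d-2, Trav13-4-dv7, Trav21-dv12, Trdv1, Trdv2-2 and Trdv5 and the constant region Trdc. In bulk RNA, fewer cells that carry a segment and less of its RNA per cell cannot be told apart. Whether the groups overlap is given below for single genes. The share of all tested genes without overlap was not counted, so these remarks are description only.

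**Figure D1:**
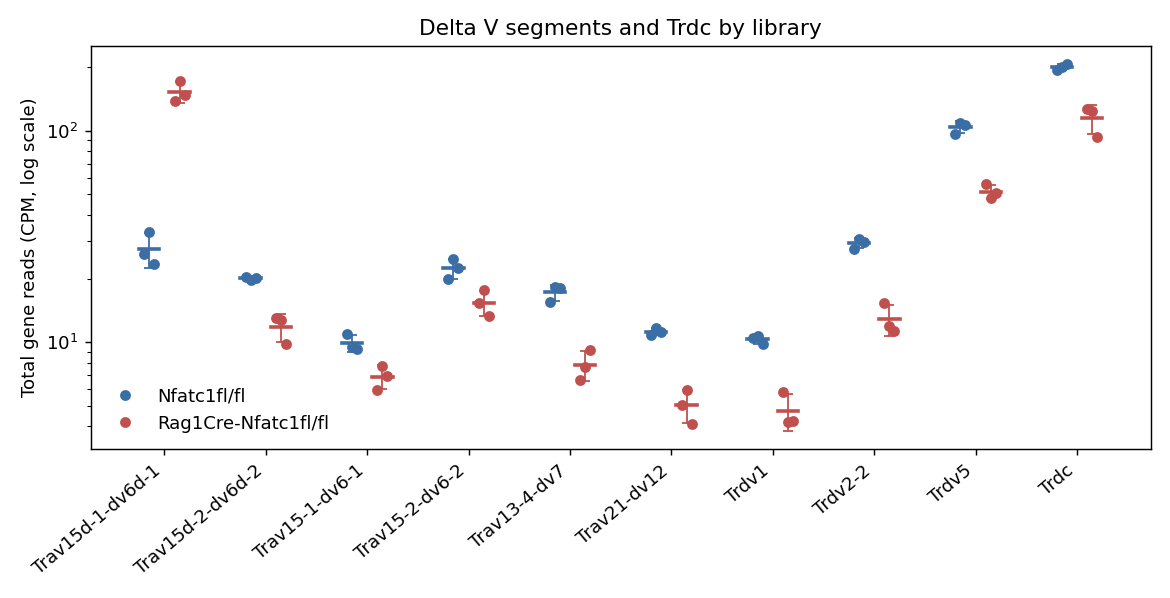
Total gene reads of 9 δ V segments and Trdc in CPM on a log axis. Points are libraries, horizontal bars are means and error bars are SDs, for Nfatc1fl/fl (blue) and Rag1Cre-Nfatc1fl/fl (red), n = 3 each. The mean of Trav15d-1-dv6d-1 is higher in Rag1Cre-Nfatc1fl/fl libraries, and the means of the other genes shown are lower.

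Trav15d-1-dv6d-1 (ENSMUSG00000096653, GRCm38 chr14:52863299-52863936, plus strand) is the δ V segment farthest from the constant region. It was at 26.1, 33.3 and 23.4 CPM in Nfatc1fl/fl libraries and at 138.4, 171.3 and 148.5 CPM in Rag1Cre-Nfatc1fl/fl libraries. The groups lay far apart, with the lowest Rag1Cre-Nfatc1fl/fl library well above the highest control. The rise was 5.53-fold (2.47 ± 0.15 on the log2 scale, ± SE, with an edgeR adjusted p of 5.42e-05), and without Rag1Cre-Nfatc1fl/fl replicate 3 the log2 fold change was 2.50.

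The segment is one of several near-identical copies, so the sequences decide how far its count can be taken literally. The V cluster of this locus was duplicated in C57BL/6 mice, and letters d and n mark the copies. The same 180 bases of the V exon of the 4 DV6 segments in the tables show what a read can tell apart. Positions are of the NCBIM37 build, on the plus strand, and capitals mark bases that differ from Trav15d-1-dv6d-1.
Trav15d-1-dv6d-1 (chr14:53483370-53483549): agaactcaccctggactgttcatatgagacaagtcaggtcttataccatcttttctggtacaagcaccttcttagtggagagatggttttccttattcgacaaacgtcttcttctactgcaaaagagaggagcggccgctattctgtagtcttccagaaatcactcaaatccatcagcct
Trav15-1-dv6-1 (chr14:54179681-54179860): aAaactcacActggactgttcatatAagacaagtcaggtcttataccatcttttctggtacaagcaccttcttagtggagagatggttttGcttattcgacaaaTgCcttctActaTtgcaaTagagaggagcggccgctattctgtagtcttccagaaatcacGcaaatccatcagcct
Trav15d-2-dv6d-2 (chr14:53576834-53577013): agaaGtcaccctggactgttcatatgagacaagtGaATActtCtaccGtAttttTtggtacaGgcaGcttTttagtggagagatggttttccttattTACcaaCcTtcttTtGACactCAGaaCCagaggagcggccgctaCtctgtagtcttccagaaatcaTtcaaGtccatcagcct
Trav15-2-dv6-2 (chr14:54269428-54269607): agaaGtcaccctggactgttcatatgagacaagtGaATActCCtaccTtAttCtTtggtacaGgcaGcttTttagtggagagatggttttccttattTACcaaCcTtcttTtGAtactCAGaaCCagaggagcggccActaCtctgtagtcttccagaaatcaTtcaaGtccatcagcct

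Over these 180 bases Trav15-1-dv6-1 differed from Trav15d-1-dv6d-1 at 10 bases, while Trav15d-2-dv6d-2 and Trav15-2-dv6-2 differed at 29 and 31 bases. The 4 segments thus fall into 2 kinds, DV6-1 and DV6-2. Trav15n-1, a further copy whose name carries no dv, was identical to Trav15d-1-dv6d-1 at all 348 aligned coding bases, and Trav15n-2 was likewise identical to Trav15d-2-dv6d-2 at 348 of 348. Trav15-1-dv6-1 matched Trav15d-1-dv6d-1 at 332 of 348 aligned coding bases (95.4%), and Trav15-2-dv6-2 matched Trav15d-2-dv6d-2 at 339 of 345 (98.3%). Windows of 49 bases, the length left after 10 of 59 were trimmed, were searched only in the chromosome 14 stretch that holds the locus. A single place there was found for 0 of 254 windows in the V exon of Trav15d-1-dv6d-1 and 0 of 251 in that of Trav15d-2-dv6d-2. The figures were 235 of 252 for Trav15-1-dv6-1 and 183 of 251 for Trav15-2-dv6-2.

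The counts showed the same division. Trav15d-1-dv6d-1 held 607, 756 and 526 total reads in Nfatc1fl/fl libraries and 3016, 3762 and 2813 in Rag1Cre-Nfatc1fl/fl libraries, and of these only 50, 62 and 48 and then 202, 241 and 192 were unique. Unique reads thus made up 8.47% of its reads in controls and 6.62% in Rag1Cre-Nfatc1fl/fl libraries. Trav15d-2-dv6d-2 had no unique read in any library, and every read of Trav15-1-dv6-1 and Trav15-2-dv6-2 was unique. Trav15n-1 and Trav15n-2 were listed at 0 reads in all 6 libraries, and from reads of this length Trav15d-1-dv6d-1 and Trav15n-1 cannot be told apart within the V exon, so a value listed under the d copy may hold reads of both. The rise was also seen in its unique reads alone, with a log2 fold change of 2.12 ± 0.17 and an adjusted p of 0.000132 (edgeR). No window of its V exon was at a single place, so where in its span these unique reads lie is not known. The sources used here do not define unique reads.

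**Figure D2:**
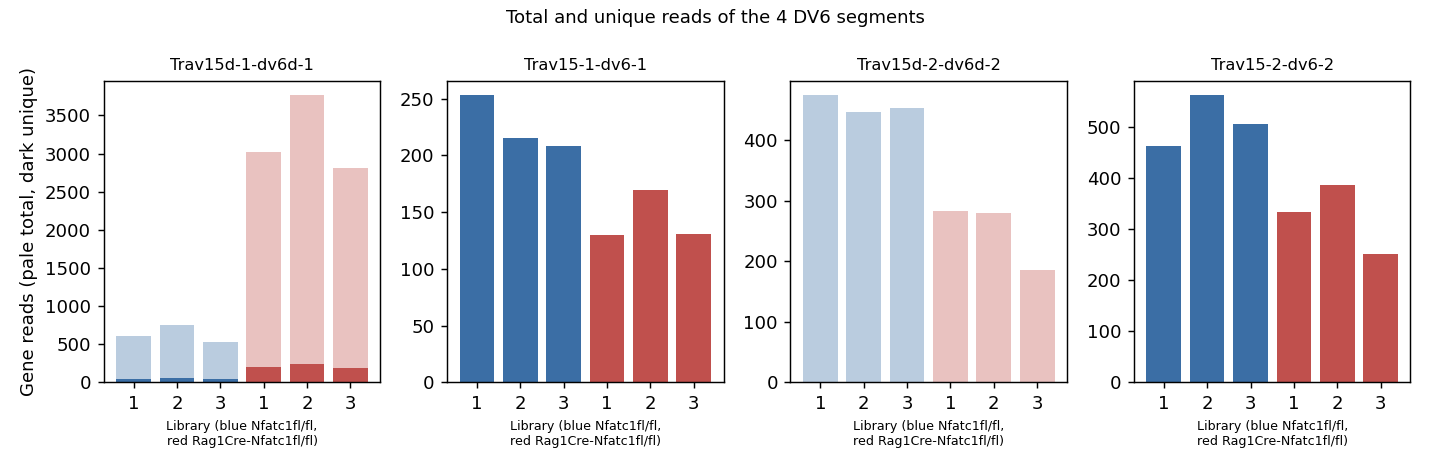
Total (pale bars) and unique (dark bars) gene reads of the 4 DV6 segments in the 3 Nfatc1fl/fl (blue) and 3 Rag1Cre-Nfatc1fl/fl (red) libraries, each panel on its own axis from 0. Total reads of Trav15d-1-dv6d-1 run from 526 to 756 and from 2813 to 3762, few of them unique, while the other 3 segments are lower in each Rag1Cre-Nfatc1fl/fl library.

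The other DV6 segments did not rise in the reads listed under them. None of the reads of Trav15d-2-dv6d-2 was unique, so its count may hold reads of Trav15n-2, identical to it in the aligned coding bases. Trav15d-2-dv6d-2 (chr14:52956782-52957400 in GRCm38, plus strand) was at 20.4, 19.7 and 20.2 CPM in Nfatc1fl/fl libraries and at 13.0, 12.8 and 9.77 CPM in Rag1Cre-Nfatc1fl/fl libraries. It fell by 0.76 ± 0.13 on the log2 scale (adjusted p = 0.00536, edgeR), a call that was lost when any library other than Rag1Cre-Nfatc1fl/fl replicate 3 was left out (log2 fold changes from -0.83 to -0.75). Trav15-1-dv6-1 (chr14:53559632-53560247), the DV6-1 copy whose reads were all unique, was at 9.87 ± 0.89 and 6.88 ± 0.89 CPM, a log2 fold change of -0.52 ± 0.15 with an adjusted p of 0.0408. Trav15-2-dv6-2 (chr14:53649404-53649994) was at 22.4 ± 2.42 and 15.4 ± 2.14 CPM, a log2 fold change of -0.54 ± 0.14 with an adjusted p of 0.0257. Both of these missed the threshold, although their groups did not overlap, and DESeq2 called Trav15-2-dv6-2 lower (adjusted p = 0.00724).

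With the members of a family summed, 1 family, DV6, was higher, 5 were lower and DV10 was not called, beside 9.97% of the genes of that fit, 6.46% higher and 3.5% lower. With only the duplicated copies summed, the background was 9.97%, 6.46% higher and 3.51% lower, and the DV6-1 segments were at 37.0, 42.7 and 32.7 CPM in Nfatc1fl/fl and at 144.4, 179.1 and 155.4 CPM in Rag1Cre-Nfatc1fl/fl libraries, higher by 2.09 ± 0.13 on the log2 scale (edgeR, adjusted p = 5.92e-05). The DV6-2 segments fell from 42.4 ± 2.05 to 27.2 ± 3.75 CPM, a log2 fold change of -0.64 ± 0.12 (adjusted p = 0.00695), a call that was lost when any library other than Rag1Cre-Nfatc1fl/fl replicate 3 was left out (adjusted p from 0.0134 to 0.0395) and kept without that replicate (log2 fold change -0.52). The whole DV6 family rose 2.34-fold, from 79.9 ± 6.29 to 186.9 ± 19.7 CPM (log2 fold change 1.23 ± 0.11, adjusted p = 0.000284), and by 1.27 on the log2 scale without Rag1Cre-Nfatc1fl/fl replicate 3. This rise of the family rested on reads that are not unique. In unique reads, which leave out nearly all reads of Trav15d-1-dv6d-1, the family's log2 fold change was -0.090 ± 0.10 with an adjusted p of 0.564, that of DV6-1 was 0.48 ± 0.12 (adjusted p = 0.0222, not called) and that of DV6-2 was -0.53 ± 0.13 (adjusted p = 0.0242, not called).

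Trdv5, the δ V segment that lies beyond Trdc in inverted orientation (chr14:54148662-54149294, minus strand), fell to about the same extent as most others. It was at 96.8, 109.4 and 106.5 CPM in Nfatc1fl/fl libraries and at 55.9, 47.9 and 50.8 CPM in Rag1Cre-Nfatc1fl/fl libraries. The groups did not overlap, and the log2 fold change was -1.02 ± 0.10 (adjusted p = 0.000392, edgeR). All of its reads were unique, and all 260 windows of its V exon occurred at a single place of the searched stretch. However, 207 bases of its span overlap the end of Trdc on the other strand.

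Trdv2-2 (chr14:53960944-53961602, plus strand) was at 27.6, 30.7 and 29.9 CPM in Nfatc1fl/fl and at 15.2, 11.9 and 11.4 CPM in Rag1Cre-Nfatc1fl/fl libraries, which do not overlap, with a log2 fold change of -1.19 ± 0.13 (adjusted p = 0.000778). Its neighbour Trdv2-1, with 319 of 341 aligned coding bases identical (93.6%), was listed at 0. Only 63 of 248 windows of the V exon of Trdv2-2 occurred at a single place of the searched stretch, although all its reads were listed as unique. An antisense gene described further on, Gm43647, leaves only 87 bases of Trdv2-2 free. The reads listed under Trdv2-2 may come from that end alone, which was not tested. Trdv1 (chr14:53881612-53882217, plus strand) was at 10.5, 10.6 and 9.75 CPM and at 5.83, 4.19 and 4.22 CPM, again with no overlap (log2 fold change -1.11 ± 0.17, adjusted p = 0.00324). All 236 windows of the V exon of Trdv1 occurred at a single place of the searched stretch.

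Trav13-4-dv7 (chr14:53757356-53757921, plus strand) and Trav21-dv12 (chr14:53875984-53876752, plus strand) are, like the Trav15 segments, open to both the α and the δ chain. The former was at 15.5, 18.2 and 18.0 CPM in Nfatc1fl/fl and at 6.66, 7.61 and 9.13 CPM in Rag1Cre-Nfatc1fl/fl libraries (log2 fold change -1.15 ± 0.15, adjusted p = 0.00159). The latter was at 10.8, 11.7 and 11.2 CPM and at 5.05, 5.92 and 4.12 CPM (log2 fold change -1.15 ± 0.16, adjusted p = 0.00229). In both the groups were apart and the fall was a little over 2-fold. All their reads were listed as unique. Yet of the 49-base windows of the V exon only 67 of 230 were at a single place of the searched stretch for Trav13-4-dv7. For Trav21-dv12 it was 239 of 239.

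In these family counts, reads of the overlapping antisense genes described further on are left out. The remaining 5 families each held fewer than 100 reads over the 6 libraries, 178 in all or 0.519% of δ V reads. Of their members only Trav4-4-dv10 passed the filter, with 12, 13 and 11 reads in Nfatc1fl/fl libraries and 7, 6 and 6 in Rag1Cre-Nfatc1fl/fl libraries (log2 fold change -0.78 ± 0.36, adjusted p = 0.153). Trav6-7-dv9 had 3 to 13 reads per library, Trav16d-dv11 had 1 to 13 and Trav14d-3-dv8 had 3 to 14. None of these 3 passed the filter, and none was called in a fit without the filter, although the groups did not overlap for Trav6-7-dv9.

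The falls were less stable to the loss of a library than the rise. Trav15d-1-dv6d-1 was called higher, and Trdv2-2 and Trdv5 lower, in each of the 6 fits that left out 1 library. Leaving out Nfatc1fl/fl replicate 1, 2 or 3 left 3, 2 and 2 δ genes called lower, and leaving out Rag1Cre-Nfatc1fl/fl replicate 1, 2 or 3 left 6, 4 and 7, although the log2 fold changes of the 7 genes kept their sign throughout. In unique reads 1 of 10 tested δ genes was higher and 6 were lower, beside 10.4% of 12918 genes called, 6.7% higher and 3.67% lower. At an adjusted p under 0.05 with no fold threshold, 1 δ gene was higher and 9 were lower, beside 23.3% of all genes, 13.2% higher and 10.1% lower.

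**Figure D3:**
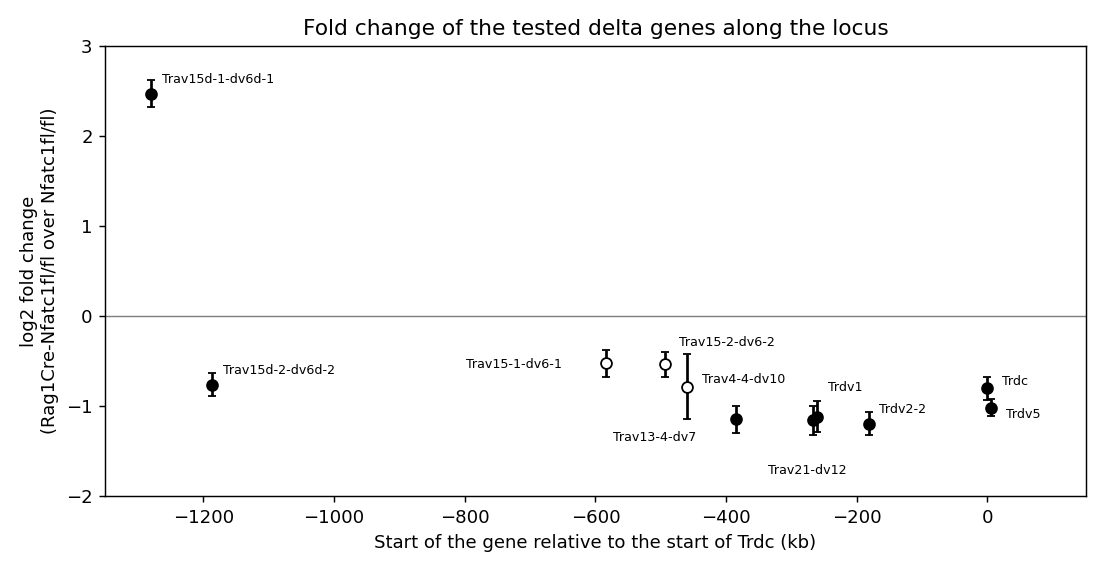
Log2 fold change (Rag1Cre-Nfatc1fl/fl over Nfatc1fl/fl, edgeR, total gene reads) with its SE for the 11 tested δ genes, against the distance in kb of the gene's start from the start of Trdc. Filled points passed the threshold and open points did not. The segment farthest from Trdc, Trav15d-1-dv6d-1, is the only one above 0, and its near neighbour Trav15d-2-dv6d-2 is at -0.76.

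Trav13-4-dv7, Trav21-dv12, Trdv1, Trdv2-2 and Trdv5, which start between -385.5 and 5.81 kb from the start of Trdc, had log2 fold changes from -1.19 to -1.02. Trav15d-2-dv6d-2, Trav15-1-dv6-1, Trav15-2-dv6-2 and Trav4-4-dv10, between -1186 and -459.2 kb, had values from -0.78 to -0.52, and Trav15d-1-dv6d-1, at -1280 kb, rose. This relation to position is a description and was not tested.

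The make-up of the δ V reads changed accordingly. Total δ V reads were 5568, 6133 and 5669 in Nfatc1fl/fl libraries and 5712, 6324 and 4918 in Rag1Cre-Nfatc1fl/fl libraries, so their number was alike while their distribution was not. Trav15d-1-dv6d-1 took 10.9%, 12.3% and 9.28% of δ V reads in the controls and 52.8%, 59.5% and 57.2% in the Rag1Cre-Nfatc1fl/fl libraries. The difference of the means was 45.7 percentage points, and the exact permutation test gave p = 0.1, the smallest that 3 libraries against 3 can give (two-sided, adjusted p = 0.1 over 9 genes). Shares are of reads and are not corrected for segment length.

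At the level of families, DV6 went from 31.5% ± 1.40 to 69.1% ± 3.43 of δ V reads (SD, n = 3 each). DV5, which held the largest share in controls, went from 41.1% ± 1.004 to 19.2% ± 2.38. DV2 went from 11.6% ± 0.23 to 4.78% ± 0.91, DV7 from 6.78% ± 0.33 to 2.90% ± 0.54, DV12 from 4.42% ± 0.08 to 1.86% ± 0.24 and DV1 from 4.06% ± 0.28 to 1.77% ± 0.40. In each of these 6 families the groups did not overlap, with p = 0.1 in the exact permutation test (two-sided, adjusted p = 0.1 over 6 families). The effective number of families, the exponential of the Shannon entropy of the shares, was 4.33 to 4.36 in controls and 2.52 to 2.84 in Rag1Cre-Nfatc1fl/fl libraries.

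**Figure D4:**
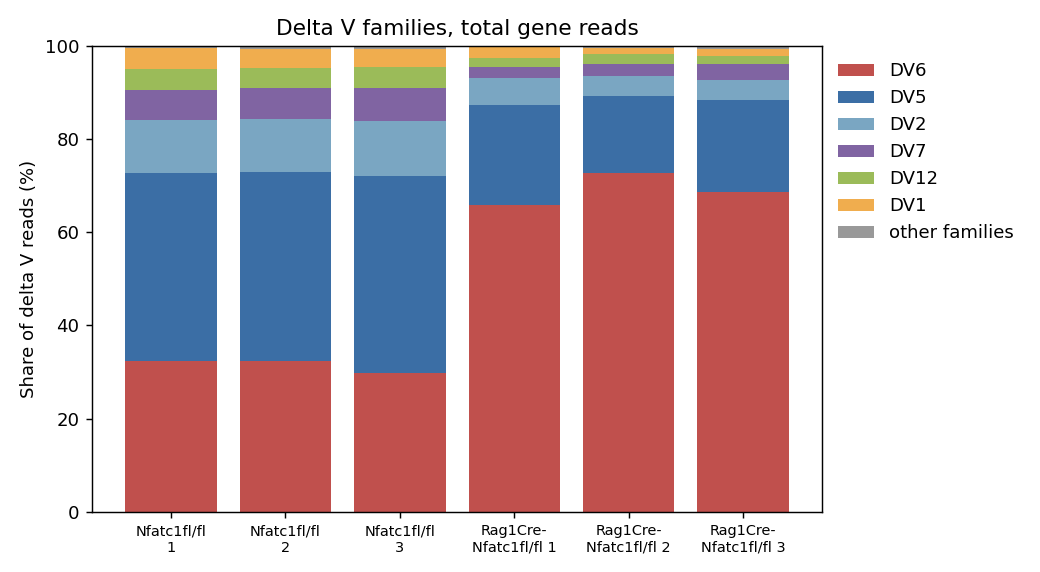
Share of δ V reads (total gene reads, %) taken by each δ V family in the 6 libraries, as stacked bars that add up to 100%. DV6 takes 29.9% to 32.3% in Nfatc1fl/fl and 65.9% to 72.7% in Rag1Cre-Nfatc1fl/fl libraries, and the other 5 named families each take less.

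Shares depend on one another, and the rest of the repertoire was therefore also set against itself with Trav15d-1-dv6d-1 left out. DV5 then took 46.0% ± 0.63 and 44.0% ± 2.55 of the remaining reads, and its groups overlapped (exact permutation p = 0.2). DV7, DV12 and DV1 also overlapped between the groups. DV2 remained lower, at 13.0% ± 0.06 against 10.9% ± 1.21, and the 3 other DV6 segments together took 23.1% ± 0.72 against 29.1% ± 3.07 (exact permutation p = 0.1 for each, adjusted p = 0.3 over 6 families). Within that remainder Trav15-2-dv6-2 went from 9.86% ± 0.57 to 13.1% ± 1.68, with groups that did not overlap.

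The picture in unique reads was weaker, and the share of δ V reads that were unique itself went from 82.1% ± 1.18 to 42.8% ± 2.97. DV6 took 16.6% ± 0.44 and 28.1% ± 3.17 of unique δ V reads, and DV5 50.01% ± 0.51 and 44.7% ± 2.57, both without overlap (exact permutation p = 0.1, adjusted p = 0.15 over 6 families). Trav15d-1-dv6d-1 went from 1.12% ± 0.11 to 8.80% ± 0.96 of unique δ V reads. The effective number of families in unique reads was 4.33 to 4.41 in controls and 4.24 to 4.33 in Rag1Cre-Nfatc1fl/fl libraries.

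Trdc (ENSMUSG00000104876, chr14:54142851-54148868, plus strand) is the constant region that each δ chain RNA should carry. Reads listed under it were at 193.6, 200.2 and 206.5 CPM in Nfatc1fl/fl libraries and at 126.8, 123.7 and 93.3 CPM in Rag1Cre-Nfatc1fl/fl libraries. The groups did not overlap, replicate 3 was lowest, and the log2 fold change was -0.80 ± 0.12 (adjusted p = 0.00352, edgeR), or -0.66 without that replicate. The call was lost without any 1 of the Nfatc1fl/fl libraries or Rag1Cre-Nfatc1fl/fl replicate 2 (adjusted p from 0.0117 to 0.0231).

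Trdc shares its span with another gene. A gene annotated as antisense, Gm43434 (chr14:54128298-54146287, minus strand), covers Trdj2 and 3437 bases of Trdc, and leaves 2581 bases of Trdc free. RefSeq gives Trdc a shorter span in the same build, chr14:54142851-54146108, which lies wholly within Gm43434. Members wholly under such a gene had no listed reads, so the reads listed under Trdc may come only from the free 2581 bases. Those bases lie outside the RefSeq span of Trdc. Where the reads lie was not tested. Gm43434 was listed with 31252, 33589 and 32535 reads in Nfatc1fl/fl and 29304, 30935 and 24706 reads in Rag1Cre-Nfatc1fl/fl libraries, of which 2.96% were unique and 99.95% lay outside its own exons. Libraries without strand cannot tell the 2 genes apart where they overlap.

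Gm43434 was at 1424 ± 69.5 and 1353 ± 52.7 CPM, a log2 fold change of -0.07 ± 0.09 with an adjusted p of 0.577. Trdc made up 12.3% ± 0.34 and 7.79% ± 0.999 of the reads listed under the pair. The sum of Trdc, Trdj2 and Gm43434 was 1539, 1677 and 1655 CPM in Nfatc1fl/fl and 1472, 1533 and 1398 CPM in Rag1Cre-Nfatc1fl/fl libraries. Its log2 fold change was -0.15 ± 0.09 with an adjusted p of 0.269, so the sum was not called although its groups did not overlap, and the fall applies to the reads listed under Trdc and not to all reads of the stretch. In unique reads the log2 fold change of the sum was -0.62 ± 0.14 (adjusted p = 0.0137, not called).

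**Figure D5:**
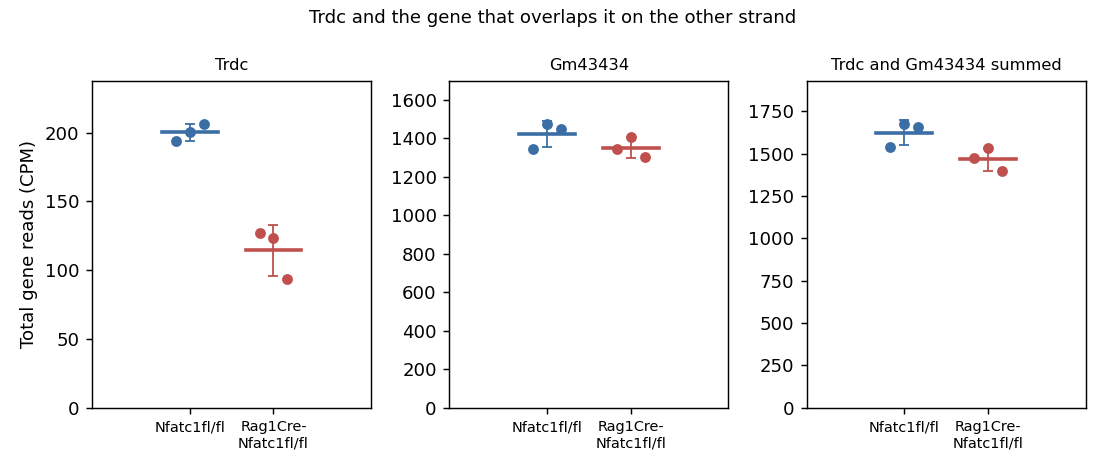
Total gene reads in CPM, on axes from 0, of Trdc, of the antisense gene Gm43434 that overlaps it, and of their sum. Points are libraries, horizontal bars are means and error bars are SDs (n = 3 each). Trdc separates the groups, whereas Gm43434, with means of 1424 and 1353 CPM, does not.

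Other members were touched by the same kind of overlap. Gm43647 (chr14:53918327-53961515, minus strand) covers Trdv2-1 wholly and all but 87 bases of Trdv2-2, and it fell from 54.9 ± 5.12 to 20.8 ± 2.31 CPM (log2 fold change -1.40 ± 0.12, adjusted p = 0.000225). Together with both Trdv2 segments its log2 fold change was -1.32 ± 0.11 (adjusted p = 0.000254), so the fall of DV2 was not smaller with these reads than without them. Gm30275 (chr14:54067579-54125395, minus strand) covers Trdv4, Trdd1, Trdd2 and Trdj1, and it fell from 38.7 ± 3.34 to 26.6 ± 1.31 CPM (log2 fold change -0.54 ± 0.10, adjusted p = 0.0065). The 0 reads listed for those members therefore do not show that they were silent. With the reads of Gm43647 added to DV2 and those of Gm30275 to DV4, DV6 took 22.99% ± 1.32 and 58.8% ± 4.02 of δ V reads. DV2 then took 24.25% ± 1.225 and 10.64% ± 1.53, and DV4 took 11.17% ± 1.46 and 8.39% ± 0.66. The family shares, their ranks and the effective numbers of families given above leave these reads out.

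Reads listed under Trdc may lie outside its RefSeq span, so what a ratio to them measures is uncertain. Set against these reads, DV6 rose from a log2 ratio of -1.33 ± 0.13 to 0.71 ± 0.25, a difference of 2.04. The exact permutation test of this difference gave p = 0.1, the smallest possible (adjusted p = 0.15 over 6 families). With Trdc and Gm43434 together as the denominator the difference was 1.37, and with the summed reads of the CD3 genes Cd3d, Cd3e, Cd3g and Cd247, whose products form the signalling part of the TCR, it was 1.13. The DV5 ratio to Trdc overlapped between the groups, at -0.94 ± 0.06 and -1.14 ± 0.25 (exact permutation p = 0.3), as did that of DV7. Those of DV1, DV12 and DV2 differed by -0.32, -0.36 and -0.39 without overlap (exact permutation p = 0.1 and adjusted p = 0.15 for each). Against the CD3 genes the DV5 difference was -1.11 on the log2 scale, and against Trdc and Gm43434 it was -0.87, without overlap in either. All δ V reads together were at a log2 ratio of -2.68 ± 0.04 and -2.44 ± 0.04 to the reads of Trdc and Gm43434. Per Trdc read their log2 ratio was 0.34 ± 0.08 and 1.25 ± 0.22, without overlap. In unique reads it was 0.30 ± 0.08 and 0.23 ± 0.25, with overlap, so the difference depends on the denominator and on the read class.

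Since Trav segments can also join the α chain, the constant region of the α chain and the other Trav segments were compared beside them. Trac, named after its values were seen, was at 31.5 ± 2.10 and 43.6 ± 1.36 CPM, a log2 fold change of 0.47 ± 0.09 with an adjusted p of 0.00777, below the fold threshold. Of 98 Trav segments with no delta name, a list taken after the values were seen, 15 were tested. Trav14-3 fell (log2 fold change -1.98 ± 0.35, adjusted p = 0.00606), 14 were not called and none was higher by edgeR, by DESeq2 or by limma-voom, with 1 higher at an unadjusted p under 0.05. Their median log2 fold change was -0.69 beside -0.01 over all tested genes, of which 3.51% were called lower and 6.47% higher. Whether the reads of Trav15d-1-dv6d-1 belong to δ or α chains cannot be told apart in gene counts.

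Of the 13 genes of the TCR and CD3 complex, all tested, 3 were lower and 10 were not called, with none higher by edgeR (1 by DESeq2, 0 by limma-voom, and 2 at an unadjusted p under 0.05). The 3 that fell were Trdc and the γ constant regions Tcrg-C1 (log2 fold change -0.65 ± 0.09, adjusted p = 0.00183) and Tcrg-C3 (-0.55 ± 0.10, adjusted p = 0.00794). None of the 3 was called without any 1 Nfatc1fl/fl library or without Rag1Cre-Nfatc1fl/fl replicate 2. The list's median log2 fold change was -0.15 beside -0.01 over all tested genes, of which 3.51% were called lower and 6.47% higher.

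Among 15 genes of V(D)J recombination and end joining, all tested, 1 was called lower, beside 3.51% of all tested genes. It was Lig4, the ligase that seals the joins, which fell from 53.1 ± 3.99 to 24.1 ± 1.51 CPM (log2 fold change -1.14 ± 0.10, edgeR adjusted p = 0.000234). No gene of this list was called higher by edgeR, DESeq2 or limma-voom (1 at an unadjusted p under 0.05), and the median log2 fold change was 0.03. The list's most abundant genes, Hmgb2 and Hmgb1, DNA-bending proteins that assist RAG, had log2 fold changes of -0.18 ± 0.09 (adjusted p = 0.183) and -0.31 ± 0.10 (adjusted p = 0.0625).

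Of 17 tested regulators of the locus and of γδ fate, 2 were higher, 5 lower and 10 not called. Over all tested genes 6.47% were called higher and 3.51% lower. The regulators' median log2 fold change was -0.35 beside -0.01 over all tested genes. Id2, an inhibitor of E proteins, rose from 61.9 ± 3.94 to 306.8 ± 28.1 CPM (log2 fold change 2.31 ± 0.10, adjusted p = 1.83e-05). Egr3, a factor induced by TCR signals, rose by 1.49 ± 0.11 on the log2 scale (adjusted p = 0.000147). Tcf7, which encodes TCF1, fell by 0.69 ± 0.10 (adjusted p = 0.00265), and Tcf3, which encodes the E protein E2A, fell by 0.57 ± 0.09 (adjusted p = 0.00347). The number of lower regulators was 0 without any 1 of the Nfatc1fl/fl libraries or without Rag1Cre-Nfatc1fl/fl replicate 2, and 3 without Rag1Cre-Nfatc1fl/fl replicate 1 or 3.

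Genes of the NKT γδ programme, a list chosen with earlier results of these data known and therefore no independent evidence of its direction, were higher in 8 of 9 cases, with none lower by edgeR, DESeq2 or limma-voom and 0 lower at an unadjusted p under 0.05. The costimulatory receptor gene Icos rose from 48.7 ± 8.11 to 578.2 ± 49.2 CPM (log2 fold change 3.57 ± 0.14, adjusted p = 1.45e-05). The cytokine gene Il13 rose by 4.63 ± 0.24 on the log2 scale (adjusted p = 2.99e-05). Nos1, the neuronal nitric oxide synthase, rose by 4.83 ± 0.24 (adjusted p = 2.71e-05), and Zbtb7b, which encodes ThPOK, rose by 3.46 ± 0.23 (adjusted p = 9.25e-05). The list's median log2 fold change was 3.46 beside -0.01 over all tested genes, of which 6.47% were called higher and 3.51% lower.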

How the data were processed

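RNA-seq had been done on γδ thymocytes in 3 Nfatc1fl/fl and 3 Rag1Cre-Nfatc1fl/fl libraries, grouped by the genotype in the labels. The authors trimmed 10 bases from reads of 59 bases and used STAR, featureCounts and DESeq2 with the GRCm38 build, per the study's methods. The deposited tables hold whole-number counts per gene, as all reads and as unique reads, for the gene span, exons, junctions and introns. The program that wrote them was not given in the sources used here. Deposited columns of normalized values were not used. All 6 tables were joined by gene, giving 41195 genes, and total gene reads per library ran from 20734771 to 22638531, of which 94.1% to 95.4% were unique. Libraries are unstranded and reads of duplicated V segments can be listed under 1 copy, so counts of single copies and of overlapping genes are uncertain.

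Counts were fitted over the whole table with edgeR 4.0.16 in R 4.3.3 (TMM factors, filterByExpr, quasi-likelihood test, genotype as the only term). P-values were adjusted by Benjamini-Hochberg over 13185 genes, and genes were called at an adjusted p below 0.01 with a log2 change beyond 0.5 either way. CPM values use the TMM-scaled library sizes. Family and copy sums were fitted in the same way. Shares and ratios were compared by two-sided exact permutation tests, for which 0.1 is the smallest p. The members and gene lists were chosen with earlier results of these data known. Every δ gene with reads is named, and from each list up to 4 called genes by adjusted p, with the 2 highest by mean CPM where fewer than 2 were called. Replicate numbers did not pair the libraries (correlations of same-numbered deviations 0.026, 0.18 and 0.0055), so no block was used. Alternatives were other scalings, no filter, DESeq2 1.42.0, limma 3.58.1 with voom, unique reads, another threshold, a replicate block and leaving out each library. Sums with antisense genes, shares without Trav15d-1-dv6d-1 and the list of other Trav segments were added after seeing the data. Sequences came from the NCBIM37 genome with GENCODE M1 coding exons, which matched 14 of 15 δ V segments, and NCBIM37 coordinates were kept apart from GRCm38 ones. V exon windows were searched, on both strands, only in the stretch of chromosome 14 that holds the locus.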

Additional observations from a re-analysis of the deposited data

How the results depend on the processing

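Other scalings, no filter, DESeq2 and limma-voom left 1 δ gene called higher and 7 or 8 lower, and an adjusted p under 0.05 without a fold threshold gave 1 higher and 9 lower beside 13.2% and 10.1% of all genes. Total exon reads, and exon reads per kb, gave no value, because no δ gene had exon reads. In unique reads no family was called higher (0 against 1), and the DV6 log2 fold change was -0.090. Unique reads leave out nearly all reads of Trav15d-1-dv6d-1. The difference in the DV6 share was 37.7 percentage points, 11.5 in unique reads and 5.97 with Trav15d-1-dv6d-1 left out. That in the share of Trav15d-1-dv6d-1 was 45.7 and, in unique reads, 7.68 points. DV6 reads per Trdc read differed by 2.04 on the log2 scale, by 0.69 in unique reads, by 1.13 against the CD3 genes and by 1.37 against Trdc with Gm43434. Signs turned for the share of DV5 among Trdv segments (2.26 points), of Trav15d-2-dv6d-2 with Trav15d-1-dv6d-1 left out (1.18), of Trav15-1-dv6-1 in unique reads (1.22) and with that segment left out (1.51), and of Trav15-2-dv6-2 (2.65 and 3.28).

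Leaving out 1 library at a time gave 1 δ gene and 1 family higher each time, 2 to 7 δ genes and 2 to 5 families lower, DV6 log2 fold changes of 1.14 to 1.29, DV6 share differences of 35.9 to 39.3 points, DV6 differences per Trdc read of 1.93 to 2.17 and Trav15d-1-dv6d-1 share differences of 44.2 to 47.5 points. The families lower numbered 5 with all libraries. TCR and CD3 genes called lower then numbered 0 to 3, those of V(D)J recombination 1 to 2 and regulators 0 to 3, and NKT γδ programme genes called higher 7 to 8. DESeq2 called 1 TCR and CD3 gene higher, and an adjusted p under 0.05 gave 2 higher and 5 lower there and 2 lower genes of V(D)J recombination. Where no cause is named, the cause was not tested.

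With the replicate number as a block, 1 δ gene was higher and 7 were lower, the log2 fold changes of Trav15d-1-dv6d-1, DV6 and Trdc were 2.48, 1.22 and -0.82, and not every library correlated best with its own number. Genes of few reads, the unknown number of mice per library and unstranded reads limit what the δ counts can show.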
